A study of Mus musculus with 47 samples.

Results

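Expression of 9 genes induced by interleukin-4 (IL-4) in alternatively activated macrophages was followed through all 12 RNA-seq libraries of a study of the chromatin reader ZMYND8. The genes were Il4ra, Egr2, Irf4, Mrc1, Mgl2, Clec10a, Chil3, Retnla and Pdcd1lg2. They were found by gene symbol, and all 9 were among the 51912 genes of the tables for bone-marrow-derived macrophages (BMDMs). In the tables for the macrophage line Raw264.7, which list only genes with a value above 0 in at least 1 of the 2 libraries, 8 of the 9 were listed for the Zmynd8 lines and 6 of the 9 for the p65 lines. The table of D/E-A is shorter, with 12771 genes that each have a mean of at least 10.8 normalised reads against 22599 to 23772 genes in the other 3, so a gene that is not listed there need not be at 0.

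The study grew BMDMs from the marrow of C57BL/6 mice for 5 days in M-CSF and sequenced them without treatment (NT, labelled M0), after 6 h of lipopolysaccharide (LPS, 100 ng/ml, labelled M1) or after 6 h of IL-4 (20 ng/ml, labelled M2). Zmynd8 cKO mice carried Zmynd8 alleles with floxed exons 6 and 7 and 1 copy of Lyz2-Cre, whose Cre is made in myeloid cells. WT mice were littermates with the floxed alleles and no Cre, so both genotypes carried the floxed gene and the Cre knock-in stood with the cKO genotype alone. The labels name the treatment of M0, M1 and M2 only in part, and LPS and IL-4 were taken from the study's text. Each BMDM library was a pool of 3 biological replicates by the study's Methods, which leaves 1 library per condition. Raw264.7 lines were made Zmynd8 KO or p65 KO by CRISPR with the LentiCrispr-V2 vector, and were then left as they were or given back WT Zmynd8, the D/E-A mutant of Zmynd8 in which acidic residues are alanine, WT p65 or the p65 mutant K122R. The p65 lines are labelled as LPS-treated. The labels of the Zmynd8 lines give no treatment. The study's text describes the lines with WT Zmynd8 and D/E-A as sequenced after LPS and does not name Zmynd8 KO there. The header of the WT p65 column says only Raw, WT and LPS, without the p65 KO background.

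IL-4 binds a receptor whose signalling chain is encoded by Il4ra. The receptor's JAK kinases activate the transcription factor STAT6, which enters the nucleus and binds spaced half-sites of the form TTC and GAA. In macrophages this programme brings on secreted proteins such as Ym1 (Chil3) and RELMα (Retnla), C-type lectin receptors that take up sugar-bearing ligands (Mrc1, Mgl2, Clec10a), the checkpoint ligand PD-L2 (Pdcd1lg2), and the transcription factors EGR2 and IRF4 that act further along the same programme.

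The 250 bases before the transcription start were searched for TTCNNNNGAA, the spacing bound by STAT6, and TTCNNNGAA, the spacing shared by other STATs. Both patterns read the same on either strand. Entries in the RefSeq promoter table (GRCm38.p6) were matched for 8 of the 9 genes, in 12 windows, and there was no entry for Clec10a. TTCNNNNGAA was found before Retnla, 145 to 136 bases upstream of the start, and before Pdcd1lg2, 82 to 73 bases upstream. TTCNNNGAA was found before Chil3, 172 to 164 bases upstream. These 3 windows are printed because they are the ones that held a match, and the motif is in capitals. Positions are counted from the RefSeq start, which for Retnla lies inside the gene as GENCODE places it, so the end of its window overlaps the position given for the gene below. They lie at chr16:48842359-48842608 on the plus strand (Retnla), chr19:29410669-29410918 on the plus strand (Pdcd1lg2) and chr3:106167565-106167814 on the minus strand (Chil3).
Retnla: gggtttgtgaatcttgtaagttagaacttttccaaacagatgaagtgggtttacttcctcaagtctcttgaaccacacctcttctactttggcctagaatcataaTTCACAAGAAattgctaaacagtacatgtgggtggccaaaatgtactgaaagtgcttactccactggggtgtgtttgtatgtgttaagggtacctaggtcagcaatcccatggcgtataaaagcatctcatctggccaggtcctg
Pdcd1lg2: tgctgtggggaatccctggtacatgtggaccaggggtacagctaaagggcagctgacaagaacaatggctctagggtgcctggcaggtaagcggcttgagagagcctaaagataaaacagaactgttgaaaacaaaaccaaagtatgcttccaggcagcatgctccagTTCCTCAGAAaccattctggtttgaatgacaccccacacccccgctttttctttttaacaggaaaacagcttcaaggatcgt
Chil3: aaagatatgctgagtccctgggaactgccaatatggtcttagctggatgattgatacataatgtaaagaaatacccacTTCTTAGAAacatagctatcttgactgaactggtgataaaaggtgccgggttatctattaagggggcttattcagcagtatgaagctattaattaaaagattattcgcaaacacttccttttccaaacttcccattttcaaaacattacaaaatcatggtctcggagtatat
Windows of Il4ra, Egr2, Irf4, Mrc1 and Mgl2 held neither pattern. Of all 32851 promoter windows of this length, 5.85% held TTCNNNNGAA and 7.02% held TTCNNNGAA. Here 3 of the 12 windows held a match, a number that was not tested, and matches describe the letters only.

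BMDM libraries held 22597408 to 28386612 counts and Raw264.7 libraries 15127110 to 21042628 reads. Ratios are followed by their exact Clopper-Pearson limits at 95%, computed from reads. These cover counting error only and compare 2 libraries. With 1 library per condition, no difference has a replicate check within these libraries. An exact binomial test on reads, run as an alternative, compares 2 libraries and not the conditions, and in bulk samples fewer cells of a type and less RNA per cell cannot be told apart. The LPS-response genes followed the BMDM labels, since all 10 on the list (Nos2, Il6, Il1b, Tnf, Il12b, Cxcl10, Ptgs2, Acod1, Ccl5, Ifit1) were at least 2-fold higher after LPS in both genotypes. Zmynd8 itself was at 87.1 CPM in WT and 81.5 CPM in cKO libraries without treatment. It was at 79.0 and 86.8 CPM in the LPS libraries and at 128 and 151 CPM in the IL-4 libraries. Counts over the whole gene cannot separate the 2 floxed exons, so the deletion could not be checked. In the Raw264.7 tables, Zmynd8 was at 116 normalised reads in Zmynd8 KO against 506 with WT Zmynd8, and 474 with WT Zmynd8 against 509 with D/E-A. Rela, which encodes p65, was at 778 in p65 KO against 1574 with WT p65, and at 1571 with WT p65 against 5963 with K122R. In these p65 lines Zmynd8 was at 1652 in p65 KO against 1795 with WT p65, and at 1791 with WT p65 against 1091 with K122R.

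After IL-4, Chil3, Pdcd1lg2, Irf4, Egr2, Mrc1 and Retnla were higher and Clec10a was lower than without treatment in WT BMDMs, while Il4ra and Mgl2 did not pass the fold rule. A gene was called at a change of at least 2-fold in log2(CPM + 1) among genes that averaged at least 10 counts over the pair. By this rule 6 of the 9 genes were called higher and 1 lower in WT, where 10.0% of 13090 genes were called higher and 6.19% lower (16.2% in all). In cKO BMDMs 5 were higher and 1 lower of the 8 that passed the count minimum, where 15.0% of 12966 genes were higher and 6.09% lower (21.1% in all). The median log2 fold change was 2.0 over the 9 genes in WT and 0.15 over all genes tested. In cKO it was 2.15 over the 8 genes and 0.17 over all genes. The 2.0 in WT was the value of Retnla itself, on 85 and 0 counts, and Retnla was not among the 8 genes in cKO. Without the count minimum the median of the 9 genes was 2.0 in WT and 1.69 in cKO. With a pseudocount of 0.1 it was 3.37 in WT and 2.18 in cKO, and on deposited TPM 3.31 and 2.32. The order of the genotypes by this median thus rested on the setting. Scaling by TMM or by the median ratio took the median of all genes close to 0 and changed the share of higher among all called genes from 61.9% to 50.3% or 51.0% in WT and from 71.2% to 57.0% or 58.9% in cKO, while the counts for the 9 genes stayed at 6 and 1 in WT and 5 and 1 in cKO.

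The IL-4 libraries differed from the others in more than the cytokine. Each condition had its own table, and that of IL-4 had 2 entries that are not genes where those of NT and LPS had 431. The sample numbers in the titles of the IL-4 libraries also stood apart from those of the NT and LPS libraries, which followed each other. IL-4 and this difference cannot be told apart. Neutrophil markers moved with IL-4 as well: 6 of the 7 (S100a8, S100a9, Camp, Ltf, Elane and Mpo, but not Ly6g) were at least 2-fold higher after IL-4 in both genotypes. Their summed level was 2.02 to 4.02 CPM in the 4 NT and LPS libraries, with 2 to 5 of the 7 at 0, and 280 and 388 CPM in the WT and cKO IL-4 libraries, with none at 0. LPS-response genes moved with IL-4 in cKO, where 9 of 10 tested were at least 2-fold higher (median log2 fold change 2.32) and their summed level was 1810 CPM against 154 CPM without treatment. In WT 3 were higher and 2 lower of 8 tested, with summed levels of 448 CPM after IL-4 and 375 CPM without treatment. The part of this in the IL-4 values of the 9 genes was not tested. Immature neutrophils are known to make Chil3, and the part of these cells in the Chil3 values was not tested. Markers of macrophages were present in every BMDM library, with all 8 above 0 and summed levels of 8844 to 17838 CPM.

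**Figure D1:**
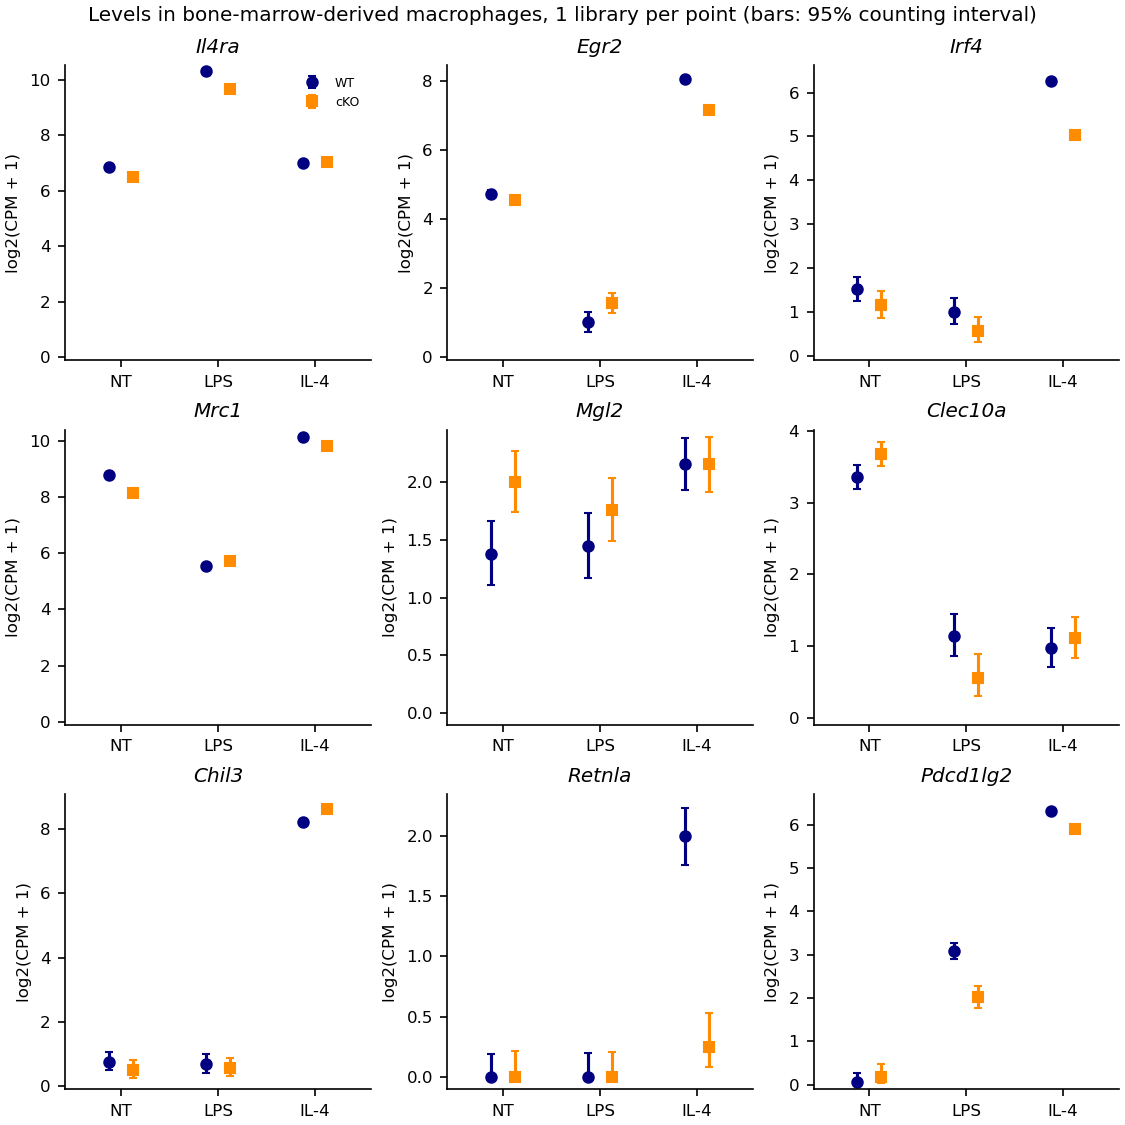
Levels of the 9 genes in the 6 BMDM libraries as log2(CPM + 1), with untreated, LPS and IL-4 libraries along the horizontal axis, WT as dark blue circles and cKO as orange squares, and bars for the exact 95% Poisson interval of the count. Chil3, Retnla, Pdcd1lg2, Egr2 and Irf4 stood highest in the IL-4 libraries, Il4ra in the LPS libraries and Clec10a in the untreated libraries.

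Il4ra, the receptor chain (chromosome 7, 125552120 to 125579474, plus strand), was at 114 CPM in WT and 90.5 CPM in cKO without treatment, at 127 and 130 CPM after IL-4, and at 1275 and 820 CPM after LPS. The level after IL-4 thus lay close to the untreated one in WT and above it in cKO, and the LPS libraries stood far above both. The ratio of IL-4 to NT was 1.11 in WT (1.06 to 1.17) and 1.43 in cKO (1.35 to 1.51). In WT the log2 fold change of 0.15 equalled the median of all genes and was -0.01 under median-ratio scaling, so no direction can be given there. In cKO it was 0.51, with 0.32 under median-ratio scaling and 0.82 on deposited TPM, all short of the 2-fold mark. Exons of Il4ra overlap those of Gm44876 on the other strand, and whether the counting used strand is not given in the sources used here.

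Egr2, a zinc-finger transcription factor (chromosome 10, 67535475 to 67542188, plus strand), was at 25.5 CPM in WT and 22.3 CPM in cKO without treatment. It was at 265 CPM in WT and 142 CPM in cKO after IL-4, but at 1.00 and 1.92 CPM after LPS. IL-4 and LPS libraries therefore lay on opposite sides of the untreated ones in both genotypes. The IL-4 ratio was 10.4 in WT (9.60 to 11.3) and 6.36 in cKO (5.80 to 7.0).

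Irf4, a lymphoid and myeloid transcription factor of the interferon regulatory factor family (chromosome 13, 30749226 to 30766976, plus strand), was low without treatment, at 1.87 CPM in WT and 1.24 CPM in cKO. After IL-4 it was at 75.8 CPM in WT and 31.9 CPM in cKO. After LPS it was at 1.00 CPM in WT and 0.469 CPM in cKO. The IL-4 ratio was 40.5 in WT (30.6 to 55.0) and 25.8 in cKO (17.7 to 39.0), and the 4 libraries without IL-4 all lay under 2 CPM.

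Mrc1, the mannose receptor CD206 (chromosome 2, 14229392 to 14332057, plus strand), was already abundant without IL-4, at 444 CPM in WT and 280 CPM in cKO. It was at 1131 and 904 CPM after IL-4 and at 46.2 and 51.6 CPM after LPS. The IL-4 ratio was 2.55 in WT (2.50 to 2.60) and 3.23 in cKO (3.14 to 3.32), the smallest among the genes called higher.

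Mgl2 and Clec10a are neighbouring paralogs on chromosome 11 that encode the galactose-type lectins CD301b and CD301a, so reads may have been split between them. Mgl2 (70130329 to 70137550, plus strand) was at 42 counts in WT and 68 in cKO without treatment, 43 and 56 in the LPS libraries, and 98 and 90 in the IL-4 libraries. These were 1.60 to 3.45 CPM, a range in which the IL-4 ratio was 2.15 in WT (1.49 to 3.17) and 1.14 in cKO (0.826 to 1.59), and neither was called on the log2(CPM + 1) scale. With a pseudocount of 0.1 or on deposited TPM the WT log2 fold change of 0.77 became 1.06 or 1.10, past the 2-fold mark. Clec10a (70156197 to 70170834, plus strand) went the other way, with 242 counts in WT and 267 in cKO without treatment, 30 and 11 with LPS, and 27 and 30 with IL-4. Its untreated libraries stood above all others, and the untreated level was 9.71-fold the IL-4 level in WT (6.51 to 15.0) and 10.3-fold in cKO (7.04 to 15.6).

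Chil3, the chitinase-like lectin Ym1 (chromosome 3, 106147554 to 106167564, minus strand), had 18 and 9 counts in untreated WT and cKO BMDMs and 15 and 11 after LPS. After IL-4 it had 8404 counts in WT and 10433 in cKO, or 296 and 399 CPM. The ratio was 431 in WT (273 to 728) and 1003 in cKO (528 to 2193), ranks 5 of 13090 and 4 of 12966 genes by log2 fold change. Its near-identical paralog Chil4 had 0 counts in the libraries without IL-4 and 14 and 8 counts with it, so the share of reads between them is uncertain.

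Retnla, the secreted protein RELMα (chromosome 16, 48842551 to 48844461, plus strand), had 0 counts in all 4 libraries without IL-4. After IL-4 it had 85 counts in WT and 5 in cKO, or 2.99 and 0.191 CPM. Against a floor of 3 counts in the untreated library, the WT level was at least 26.2-fold higher, and the exact lower limit of the ratio, which also covers counting error in the 85 counts, was 20.8. In cKO the exact lower limit on the 5 counts was 0.793, so the limits included equal levels, and the gene did not reach the count minimum there.

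Pdcd1lg2, which encodes PD-L2 (chromosome 19, 29410919 to 29471161, plus strand), had 1 count in untreated WT and 3 in untreated cKO BMDMs. It had 186 and 72 counts with LPS and 2241 and 1520 with IL-4, or 78.9 and 58.2 CPM. Both treatments therefore stood above the untreated libraries, IL-4 by more. With so few untreated counts the IL-4 ratio was 2069 in WT (371 to 81762) and 438 in cKO (150 to 2127).

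Per length, as deposited TPM in the WT IL-4 library, the order was Chil3 (330 TPM), Mrc1 (318 TPM), Egr2 (143 TPM), Pdcd1lg2 (81.0 TPM), Il4ra (43.7 TPM), Irf4 (23.9 TPM), Retnla (12.7 TPM), Mgl2 (4.72 TPM) and Clec10a (1.59 TPM). Chil3 and Mrc1 were the closest neighbours by ratio, and 1 library gives no spread to tell them apart. In the cKO IL-4 library Chil3 (437 TPM) and Mrc1 (250 TPM) again led and Retnla was last at 0.81 TPM. Without treatment Mrc1 led in WT at 123 TPM, followed by Il4ra at 38.5 TPM, and after LPS Il4ra led at 381 TPM.

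LPS, which drives the classical programme, moved the same genes in mixed directions. In WT, 2 of the 8 genes tested were called higher (Il4ra and Pdcd1lg2) and 3 lower (Mrc1, Clec10a and Egr2). Of all 12813 genes, 10.5% were called higher and 32.8% lower (43.3% in all). In cKO the same 2 were higher and the same 3 lower, where 13.2% of 12666 genes were higher and 32.8% lower (46.0% in all). The median log2 fold change of all genes was -0.58 in WT and -0.55 in cKO. It was -0.07 in both under median-ratio scaling, which moved the share of higher among called genes from 24.2% to 49.3% in WT and from 28.6% to 51.4% in cKO and left the calls of these genes at 2 and 3. Of the 8 macrophage markers 3 were higher and 1 lower after LPS in WT, and 3 higher and 4 lower in cKO. Their summed level went from 17420 to 12814 CPM in WT and from 14149 to 8844 CPM in cKO. All 3 dendritic cell markers tested were higher in both genotypes, at sums of 15.8 and 21.0 CPM after LPS. The part of these in the values of the genes was not tested.

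The LPS ratio of Il4ra was 11.2 in WT (10.8 to 11.6) and 9.06 in cKO (8.66 to 9.49), that of Pdcd1lg2 was 196 (34.7 to 7773) and 23.1 (7.61 to 115). For the genes that were lower, the untreated level exceeded the LPS level 25.4-fold for Egr2 in WT (17.0 to 39.5) and 11.6-fold in cKO (8.57 to 16.2). For Mrc1 the excess was 9.60-fold in WT (9.04 to 10.2) and 5.42-fold in cKO (5.09 to 5.77). For Clec10a it was 7.66-fold (5.23 to 11.6) and 25.2-fold (13.8 to 51.0). Chil3, Mgl2 and Irf4 were not called after LPS, with log2 fold changes of -0.07, 0.07 and -0.52 in WT, the last of these near the median of all genes. Retnla had no counts.

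**Figure D2:**
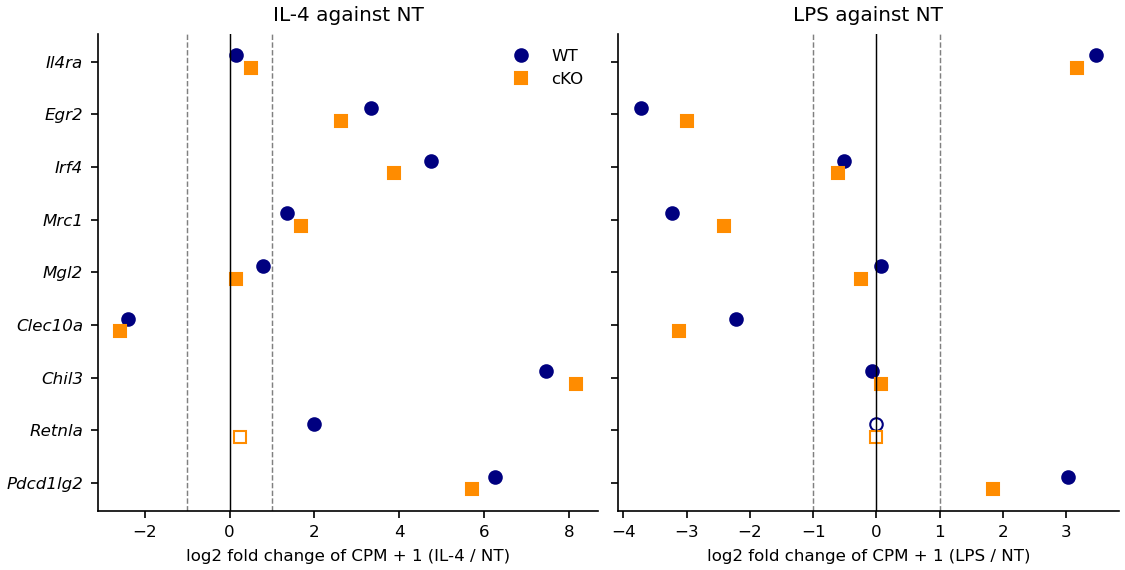
Log2 fold change of CPM + 1 against untreated BMDMs for IL-4 (left) and LPS (right), WT as dark blue circles and cKO as orange squares, open symbols for genes under the count minimum and dashed lines at 2-fold. Il4ra stood past the 2-fold line after LPS and inside it after IL-4, and Egr2 stood on opposite sides of 0 after the 2 treatments.

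Within IL-4-treated BMDMs, 5 of the 9 genes were lower in cKO than in WT, among them both transcription factors, 1 was higher and 3 were not called. The rule here was a change of at least 1.2-fold in log2(CPM + 1), and it called 17.3% of 13245 genes higher and 13.4% lower (30.7% in all). The median log2 fold change was -0.32 over the 9 genes and 0.01 over all genes. Retnla was 15.6-fold higher in WT than in cKO (6.45 to 49.4), on 85 and 5 counts. Irf4 was 2.38-fold higher in WT (2.19 to 2.58), Egr2 1.86-fold (1.79 to 1.94), Pdcd1lg2 1.36-fold (1.27 to 1.45) and Mrc1 1.25-fold (1.23 to 1.27). By log2 fold change Retnla held rank 4 from the lowest of 13245 genes, Irf4 rank 29 and Egr2 rank 72. Chil3 went the other way and was 1.35-fold higher in cKO (1.31 to 1.39). Il4ra had a ratio of 1.02 (0.975 to 1.07), Mgl2 of 0.998 (0.741 to 1.34) and Clec10a of 1.21 (0.694 to 2.11) on 30 and 27 counts. At 2-fold in place of 1.2-fold, Retnla and Irf4 were the 2 genes called. For markers of IL-4 treatment, among them Arg1, Mrc1 and Pdl2 (Pdcd1lg2), the study itself reports no significant difference between genotypes. It also describes the transcriptome changes of WT and cKO as similar without treatment and after IL-4.

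Other values moved with this genotype difference. All 10 LPS-response genes were higher in the cKO IL-4 library, with a median log2 fold change of 1.71, and Nos2 had 187 counts there against 35 in WT. Of the 7 neutrophil markers 4 were higher in cKO. Of the 8 macrophage markers 3 were higher and 3 lower, Lyz2 among the latter with a log2 fold change of -0.77. The cKO mice carry Cre in 1 Lyz2 allele. The part of these in the values of the 9 genes was not tested.

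In untreated BMDMs 2 of the 7 genes tested were higher in cKO (Mgl2 and Clec10a) and 4 lower (Mrc1, Il4ra, Irf4 and Chil3), where 25.0% of 12463 genes were higher and 29.0% lower (54.0% in all). Mrc1 was 1.59-fold higher in WT (1.54 to 1.64) and Il4ra 1.26-fold (1.19 to 1.33). Irf4, on 49 and 28 counts, and Chil3, on 18 and 9, had counting limits that included equal levels, 0.930 to 2.49 and 0.736 to 4.36 for WT over cKO. Mgl2 was 1.88-fold higher in cKO (1.26 to 2.83) and Clec10a 1.28-fold (1.07 to 1.53). Egr2 was not called, with a ratio of 0.877 (0.780 to 0.986). LPS-response genes also differed here, with 1 higher in cKO and 6 lower of 8 tested (median log2 fold change -0.94), and of the 8 macrophage markers 2 were higher and 4 lower. Their part in these values was not tested. On deposited TPM 1 gene was higher and 4 lower, and the share of higher among all called genes was 22.0% in place of 46.3%.

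In LPS-treated BMDMs 2 of the 8 genes tested were higher in cKO (Egr2 and Mgl2) and 4 lower (Il4ra, Pdcd1lg2, Clec10a and Irf4), where 22.6% of 12386 genes were higher and 13.3% lower (35.9% in all). Pdcd1lg2 was 2.43-fold higher in WT (1.84 to 3.24) and held rank 33 from the lowest. Il4ra was 1.56-fold higher in WT (1.53 to 1.58) on 31761 and 19204 counts. Clec10a and Irf4 rested on 30 and 11, and 25 and 11 counts, with WT over cKO of 2.57 (1.25 to 5.68) and 2.14 (1.01 to 4.81). Egr2 was 1.91-fold higher in cKO (1.15 to 3.26) on 45 and 25 counts, and for Mgl2 the limits of 0.914 to 2.11 included equal levels. Of the 10 LPS-response genes 6 were higher in cKO and none lower (median log2 fold change 0.47), and their part was not tested. Under median-ratio scaling the share of higher among all called genes was 51.4% in place of 62.9%, and the counts of 2 and 4 were the same. On deposited TPM the share was 72.8% and 2 genes were higher and 3 lower, with Irf4 at a log2 fold change of -0.17, and with the exact binomial test 1 was higher and 3 lower.

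**Figure D3:**
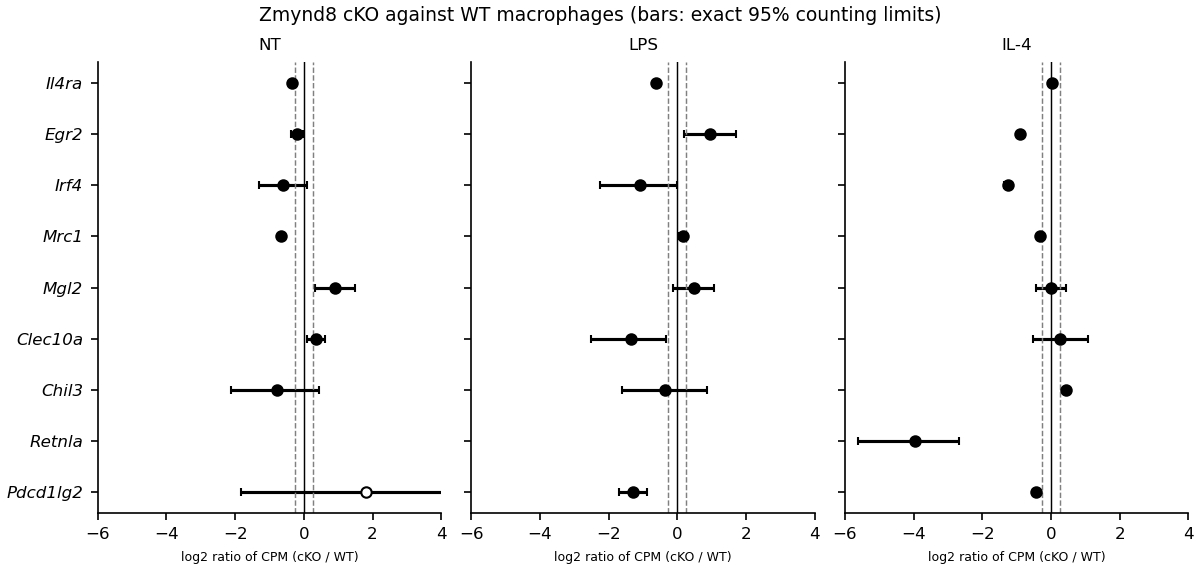
Log2 ratio of CPM in cKO over WT BMDMs in the 3 conditions, with exact 95% counting limits, dashed lines at 1.2-fold, an open symbol for Pdcd1lg2 under the count minimum in untreated cells (its upper limit runs off the axis) and no point where both libraries had 0 counts. Irf4 and Egr2 lay below the lower dashed line after IL-4, with limits of 0.388 to 0.456 and 0.516 to 0.559 on the ratio scale.

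The genes also differed in how far their IL-4 response changed with genotype. Expressed as cKO minus WT, the log2 fold change of IL-4 against NT differed by -0.86 for Irf4, -0.71 for Egr2, -0.63 for Mgl2, -0.56 for Pdcd1lg2 and -0.19 for Clec10a, and by 0.70 for Chil3, 0.36 for Il4ra and 0.34 for Mrc1. Over the 12689 genes tested in both genotypes this difference had a median of 0.04, a 5th percentile of -0.71 and a 95th percentile of 0.98. Irf4 thus lay below the 5th percentile and Egr2 at its edge, but this rested on the pseudocount. With 0.1 in place of 1 the difference was -0.69 for Irf4, -0.71 for Egr2, -1.19 for Pdcd1lg2, -0.87 for Mgl2, -0.10 for Clec10a and 1.09 for Chil3, the 5th percentile was -0.90, and Pdcd1lg2 alone of the 8 lay below it. For LPS the difference was -1.18 for Pdcd1lg2 and -0.91 for Clec10a, where the 5th percentile of all genes was -0.82. With a pseudocount of 0.1 these were -2.01, -1.55 and -1.06. None of these differences was tested, since each of the 4 conditions is 1 library.

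Of 27 other genes known to be induced by IL-4 in macrophages, 26 were in the tables and 24 were tested. In WT 13 were higher after IL-4, 3 lower and 8 not called, with a median log2 fold change of 1.81 (10.0% of all genes were higher and 6.19% lower), and in cKO 14 were higher, 3 lower and 7 not called, with a median of 2.0 (15.0% and 6.09% of all genes). Arg1, the arginase that marks alternative activation, went from 20 to 42592 counts in WT and from 14 to 40252 in cKO. Flt1, a VEGF receptor, had a log2 fold change of 7.55 in WT and 7.70 in cKO, and Cdh1, the adhesion molecule E-cadherin, of 6.57 and 6.78. The cytokine-signalling suppressor Socs2 (4.30 and 3.09), the transcription factor Batf3 (3.94 and 2.37) and the cyclooxygenase Ptgs1 (4.92 and 3.67) had smaller log2 fold changes in cKO. The chemokines Ccl22 (5.24 and 6.58) and Ccl17 (2.88 and 4.21) had larger ones. Mmp12, Il1rn and Atp6v0d2 were lower after IL-4 in both genotypes.

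Between genotypes after IL-4, 6 of these other IL-4-induced genes were higher in cKO, 9 lower and 10 not called of 25 tested, with a median log2 fold change of 0.01, where 17.3% of all genes were higher and 13.4% lower. Socs2 (-1.19), Ptgs1 (-1.03), Batf3 (-0.84), Klf4 (-0.78), Pparg (-0.74), Flt1 (-0.58) and Clec7a (-0.56) were among those lower, and Ccl17 (1.27), Mmp13 (1.04) and Ccl22 (1.02) among those higher. Arg1 was not called, at 0.04.

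**Figure D4:**
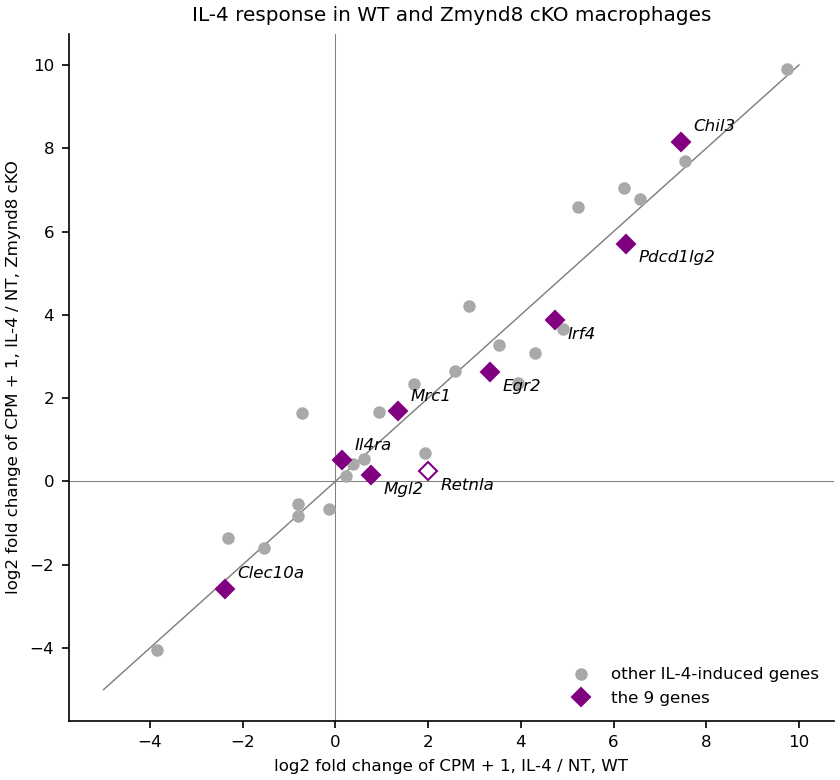
Log2 fold change of CPM + 1 for IL-4 against untreated BMDMs in WT (horizontal axis) and cKO (vertical axis), with the 9 genes as purple diamonds, Retnla open because it was under the count minimum in cKO, the other IL-4-induced genes tested in both as grey circles and a grey line of equal response. Irf4, Egr2, Pdcd1lg2, Mgl2 and Retnla lay below the line and Chil3 above it.

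Among 14 genes of the IL-4 signalling pathway, 11 were tested in WT, of which 4 were higher after IL-4, 1 lower and 6 not called, where 10.0% of all genes were higher and 6.19% lower. Cish and Socs1, feedback inhibitors of cytokine receptors, had log2 fold changes of 5.66 and 3.20 in WT and 5.16 and 3.85 in cKO. The kinases Jak2 (2.83 and 3.99) and Tyk2 (1.08 and 1.66) were the others. Il13ra1, which pairs with the Il4ra chain in the type II receptor, was lower in WT (-1.02) and not called in cKO (-0.06). Stat6 had 7035 counts without treatment and 6834 after IL-4 in WT, and 5397 and 5252 in cKO, and was not called. Between genotypes after IL-4, 4 of 11 were higher in cKO (Il2rg, Il13ra1, Jak2 and Socs1), Irs2 was lower and 6 were not called, where 17.3% of all genes were higher and 13.4% lower.

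The genes whose levels over the 6 BMDM libraries were most like those of each gene were looked up in the whole table, genes of the lists included. Likeness was measured as the root mean square difference of centred log2(CPM + 1) values among 9933 genes that averaged at least 100 counts. Pdcd1lg2 was nearest to Cish at 0.30, with 6, 11, 129, 65, 1741 and 1360 counts of Cish in WT NT, cKO NT, WT LPS, cKO LPS, WT IL-4 and cKO IL-4. Il4ra was nearest to Plekha4 (0.12) and Sco1 (0.22), Mrc1 to Ctnnd2 and Stard9 (0.21 both), and Clec10a to Nkain1 (0.23) and Akr1b8 (0.25). Irf4 was nearest to Rab11fip4 (0.35) and Notch4 (0.38), Egr2 to Dusp4 (0.40) and Prps1 (0.42), and Chil3 to Gm24798 (0.46) and Cdh1 (0.50). The second neighbour of Pdcd1lg2 was Lad1, at 0.62. Retnla and Mgl2 were under the minimum.

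The libraries labelled Raw264.7 fell into 2 unlike sets, which bears on every value below. Raw264.7 comes from a male mouse, and Xist, which is made in female cells, had 7109 to 8467 reads in the 3 Zmynd8 libraries against 0 to 3 reads in the 3 p65 libraries. The 7 neutrophil markers summed to 57352 to 160733 normalised reads in the Zmynd8 libraries and to 3.06 to 4.92 in the p65 libraries, where 3 of the 7 were listed. B cell markers summed to 1623 to 2004 in the Zmynd8 libraries. The labels and these markers go against each other for the Zmynd8 lines, so these 3 are named below only as labelled. Values are whole reads over the size factor that the authors gave each library, comparable within a table and not between tables.

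Levels of the 9 genes also differed between the sets. In the table of Zmynd8 KO and WT Zmynd8, Chil3 was at 20768 and 21290 normalised reads and Mgl2 at 47.0 and 44.8, and neither was listed in the p65 tables. Retnla was not listed in any of the 4 tables. Mrc1 was at 712 and 339 there and at 4.07 to 12.2 in the p65 tables, while Egr2 was at 127 and 105 there and at 496 to 522 in the p65 tables. As the tables were normalised separately, these levels are set side by side only.

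In the library labelled as D/E-A, 3 of 8 genes were at least 1.2-fold higher than with WT Zmynd8 (Mrc1, Il4ra and Egr2) and 2 lower (Chil3 and Mgl2), where 36.7% of 12771 genes were higher and 35.9% lower (72.6% in all). The median log2 fold change was 0.05 over the 8 genes and 0.02 over all genes. Mrc1 was at 1318 against 318, a ratio of 4.15 (3.67 to 4.70) that held rank 13 from the highest. Il4ra was at 17630 against 8745, a ratio of 2.02 (1.97 to 2.07), and Egr2 at 162 against 98.7, a ratio of 1.64 (1.27 to 2.13). Chil3 was at 13214 against 19947 (ratio 0.662, 0.648 to 0.677), and for Mgl2 the limits of 0.495 to 1.30 included equal levels. Irf4, Clec10a and Pdcd1lg2 had ratios of 1.05, 1.02 and 0.957. All 7 neutrophil markers were lower in D/E-A and 7 of 8 macrophage markers higher, with S100a8 at 17779 against 48699. Dendritic cell markers were lower for 5 and higher for 1 of 6, eosinophil markers lower for 3 and higher for 1 of 4, and LPS-response genes higher for 4 and lower for 3 of 10, with Nos2 at 50270 against 8988. The part of these in the values of Mrc1, Il4ra and Chil3 was not tested.

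In the library labelled Zmynd8 KO, 3 of 8 genes were higher than with WT Zmynd8 (Mrc1, Il4ra and Pdcd1lg2) and none was lower, where 33.8% of 21302 genes were higher and 36.5% lower (70.3% in all). The median log2 fold change was 0.16 over the 8 genes and -0.03 over all genes. It was 0.08 over the 8 with reads divided by the library sum, where the pseudocount also stands for more reads. Mrc1 had a ratio of 2.10 (1.84 to 2.40) and Il4ra, at 12845 against 9334, of 1.38 (1.34 to 1.41). For Pdcd1lg2 the limits of 0.930 to 1.87 included equal levels. Chil3, Irf4, Clec10a, Mgl2 and Egr2 had ratios from 0.966 to 1.2 and were not called. Egr2, at the upper end, fell short of the mark through the pseudocount and was called with 0.1 in its place. Here 5 of 7 neutrophil markers were lower, 7 of 8 macrophage markers higher, and 4 of 10 LPS-response genes higher and 1 lower, and their part was not tested. Both comparisons share the WT Zmynd8 library.

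Among the LPS-treated p65 lines, Irf4, Egr2 and Il4ra were measured on at least 369 reads and the other listed genes on at most 21. K122R had 4 of 6 genes higher than WT p65 (Il4ra, Mrc1, Clec10a and Pdcd1lg2) and none lower, where 30.8% of 19670 genes were higher and 32.5% lower (63.3% in all). The median was 0.57 over the 6 genes and 0.01 over all genes. With reads divided by the library sum it was 0.14 over the 6, but the pseudocount also stands for more reads there. Il4ra was at 568 against 397, a ratio of 1.43 (1.26 to 1.63), whereas Mrc1 rested on 12 and 6 reads (ratio 2.08, 0.722 to 6.75), Clec10a on 10 and 6 (1.73, 0.570 to 5.80), and Pdcd1lg2 on 2 and 1 (2.08, 0.108 to 123). The limits of these 3 included equal levels, and with the exact binomial test Il4ra was the 1 gene still called. Irf4 was at 844 against 894 and Egr2 at 522 against 499, and neither was called. Of the 10 LPS-response genes 6 were higher and 2 lower in K122R and of the 8 macrophage markers 3 were higher and 2 lower, and their part was not tested. With reads divided by the library sum, 2 genes were called and the share of higher among all called genes was 31.3% in place of 48.6%. Scaling and pseudocount both differ in that setting, and their parts were not tested.

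In p65 KO, 1 of 5 genes tested was higher than with WT p65 (Clec10a) and 2 lower (Irf4 and Mrc1), where 26.3% of 19879 genes were higher and 25.7% lower (51.9% in all). The median was -0.08 over the 5 genes and 0.01 over all genes. Irf4 was at 637 against 896, which was 1.41-fold higher with WT p65 (1.27 to 1.56). Clec10a had 21 and 6 reads (ratio 3.62, 1.41 to 11.0), Mrc1 4 and 6 (ratio 0.690, 0.143 to 2.91), and Pdcd1lg2 0 and 1. Il4ra and Egr2 had ratios of 0.943 and 0.992. LPS-response genes were higher for 1 and lower for 4 of 10, macrophage markers higher for 2 and lower for 1 of 8, and their part was not tested. K122R and p65 KO share the WT p65 library.

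**Figure D5:**
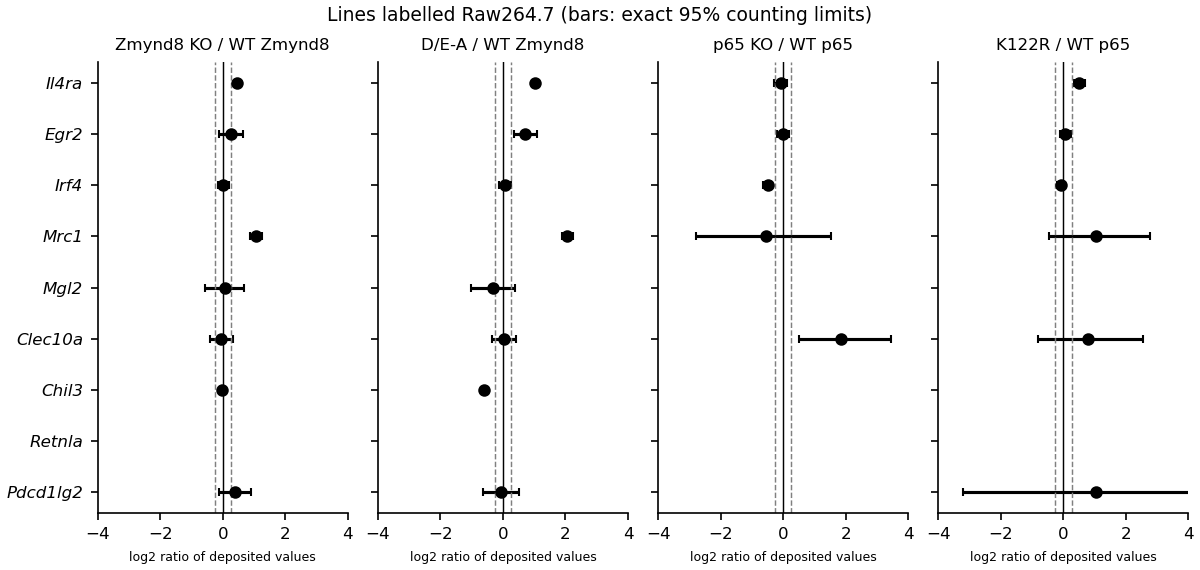
Log2 ratio of deposited normalised reads between lines labelled Raw264.7, with exact 95% counting limits and dashed lines at 1.2-fold, and no point where a gene was not listed or was at or under 3 reads with a 0. Mrc1 and Il4ra lay above the upper dashed line in Zmynd8 KO and D/E-A, with Mrc1 at ratios of 2.10 and 4.15.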

How the data were processed

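The 12 RNA-seq libraries were analysed, of which 6 were BMDMs and 6 were labelled Raw264.7, each the only one of its condition, and the other 35 of 47 samples were not analysed here. For BMDMs the authors deposited estimated counts per gene (TopHat to mm10 by the study's methods) with no normalization, and TPM; 75.2% to 76.6% of the counts above 0 were whole. For Raw264.7 the authors deposited a signal per gene, found to be whole reads divided by a size factor for 99.996% to 100% of values (tolerance 0.01 reads). The submitters' processing notes also name Bowtie 0.12.2 and CASAVA 1.4, with no role given. Whether strand was used in counting is not given in the sources used here. Deposited log2 fold changes and p-values hold the authors' own comparisons and were not used, nor were 2 unlabelled columns of per-sample values. A length column disagreed with the TPM and was not used.

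Counts were rounded and divided by library totals (CPM). Log2 fold changes used a pseudocount of 1 on CPM or on the Raw264.7 signal, among genes averaging at least 10 counts or a signal of at least 1. A CPM of 1 is many counts, while a signal of 1 is about 1 read. Changes of low genes are therefore understated in BMDMs but little in Raw264.7, where genes on few reads can be called. Shares of called genes are not comparable between BMDMs and Raw264.7. Treatments were called at 2-fold, genotypes and lines at 1.2-fold, in 11 comparisons, by size alone. Alternatives were a pseudocount of 0.1, no filter, TMM (edgeR 4.0.16), median-ratio scaling, TPM, reads over the library sum for Raw264.7, a 2-fold rule, and the fold rule with a two-sided exact binomial test on reads, Benjamini-Hochberg adjusted p under 0.05. Reads over the library sum were on the CPM scale with a pseudocount of 1, so changes of low genes were understated there too. A pseudocount of 0.1 for the difference of responses between genotypes was added after seeing the data. Scripts were tested on simulated counts. Python 3.11.15, numpy 2.4.6, scipy 1.17.1 and R 4.3.3 were used.

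The genes and all lists (IL-4 signalling, other IL-4-induced genes, LPS-response genes and cell type markers) were chosen with earlier results of these data known. All 9 genes are named in every library, other genes come only from these lists, the label checks (Zmynd8, Rela, Lyz2, Xist) or the 2 nearest profiles per gene. Gm44876 was named for its overlap, after it was seen. Ear11 was not found. Markers of dendritic cells (0.841 to 21.0 CPM in all), mast cells and basophils (0.256 to 3.05), eosinophils (2.49 to 36.8), B cells (0.177 to 0.427), T cells (3.94 to 29.1) and fibroblasts (0.268 to 2.01) were low in BMDMs. Gene positions are from GENCODE vM21 (GRCm38).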

Additional observations from a re-analysis of the deposited data

Results flagged for a closer look

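Among differences of at least 1.2-fold between cKO and WT BMDMs, the direction was opposite in different conditions for 3 of the 8 genes tested in at least 2 conditions, where it was so for 22.1% of all 12589 such genes. Each value is a log2 fold change of 1 library against 1 library, and the difference between conditions was not tested. For Egr2 it was 0.54 after LPS, on 45 and 25 counts, and -0.89 after IL-4, on 3716 and 7515 counts. For Chil3 it was -0.27 without treatment, on 9 and 18 counts, and 0.43 after IL-4, on 10433 and 8404 counts. The untreated value of Chil3 had counting limits that included equal levels, and under TMM scaling it was -0.26, inside the 1.2-fold mark. For Clec10a it was 0.32 without treatment, on 267 and 242 counts, and -0.59 after LPS, on 11 and 30 counts. On deposited TPM the untreated value of Clec10a was 0.09, also inside the mark.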

How the results depend on the processing

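Directions of the called genes were the same under every alternative run. A rule of at least 2-fold in place of 1.2-fold called 0 of the 9 genes and 477 of all genes in cKO against WT without treatment, 1 and 112 with LPS, and 2 and 261 with IL-4. The same rule called 2 and 2345 in D/E-A, 1 and 5460 in Zmynd8 KO, 0 and 3926 in K122R, and 1 and 3149 in p65 KO. Adding the exact binomial test on recovered reads left 6683 genes in Zmynd8 KO, 5219 in K122R with 1 of the genes followed here, 2620 in p65 KO and 7841 in D/E-A. It left 5934, 3204 and 3208 genes in the BMDM genotype comparisons and all calls in the treatment comparisons. Of the genes followed here it left 2 higher and 2 lower without treatment, 1 and 3 with LPS and 1 and 5 with IL-4. With reads over the library sum, 2 of the genes were called in K122R, and 5954 of all genes in p65 KO in place of 10325. That setting is on the CPM scale, where the pseudocount of 1 is many reads, so scaling and pseudocount changed together. In p65 KO the median of all genes went from 0.01 to 0.003 and the log2 fold change of Irf4 from -0.49 to -0.48. That of Clec10a, on 21 and 6 reads, went from 1.70 to 0.79. The lower counts of calls therefore cannot be put down to the scaling alone. In all, 110 counts of calls stayed within 1.5 times and 20 did not. No paired analysis was possible because each condition has 1 library, and for the same reason no library could be left out. Depth limits Retnla, Mgl2, Clec10a, untreated Chil3 and Pdcd1lg2, and the low genes of the p65 lines. With a pseudocount of 0.1 the IL-4 log2 fold change in WT was 4.95 for Retnla in place of 2.0, 8.56 for Chil3 in place of 7.46 and 9.16 for Pdcd1lg2 in place of 6.27. Without a filter the median of the genes in p65 KO was -0.26 in place of -0.08.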

Other observations

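Genes of the IL-4 signalling pathway also changed under LPS. Of 11 tested, 7 were at least 2-fold higher after LPS and 1 lower in each genotype, with median log2 fold changes of 1.71 in WT and 1.54 in cKO. Of all genes 10.5% were higher and 32.8% lower in WT, and 13.2% and 32.8% in cKO. Socs1, a feedback inhibitor, had log2 fold changes of 5.65 and 5.61, Jak2 of 3.04 and 4.26, and Il13ra1 of 2.32 and 2.39. Irs2, an adaptor of the IL-4 receptor, was lower at -1.82 and -1.51. Cish had 6 counts in untreated WT, 129 after LPS and 1741 after IL-4.

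Of the other IL-4-induced genes, 9 were higher and 8 lower of 22 tested after LPS in each genotype. Slc7a2, an arginine transporter, had log2 fold changes of 5.58 in WT and 6.90 in cKO after LPS and of 6.22 and 7.04 after IL-4. Arg1 had 659 counts in WT and 455 in cKO after LPS, against 20 and 14 without treatment.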
